A study of Sparus aurata with 6 samples.

Results

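In gilthead sea bream (Sparus aurata) skin, 98 transcript names read higher on a diet with spray-dried porcine plasma (SDPP) than on the control diet in every well-detected probe of the name. They were chosen by the measured values themselves. A name belonged to the set when at least 2 of its probes were well above background on all 6 arrays, when in each of these probes the lowest SDPP pool lay above the highest control pool, and when the mean difference over the probes was at least 0.4 on the log2 scale. The array carries 15156 transcript names, of which 4434 had at least 1 such probe and 1961 had 2 or more and so could qualify. The difference between the diets is therefore a property of the selection and is given below as a description, with no test.

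The skin of a teleost fish is a living mucosal surface. Its epidermis holds keratinocytes, which keep the barrier, and mucous cells, which secrete the mucus layer that carries antimicrobial proteins, lectins and immunoglobulins, and it lies on a dermis with scales, pigment cells and vessels. Spray-dried plasma is a feed ingredient rich in albumin, immunoglobulins and growth factors that is widely given to farm animals, and a feeding trial of this kind asks whether such a diet changes what the skin transcribes. The probes of this array were designed on assembled fragments of expressed sequence. Most names are those of a contig or a complementary DNA clone, and a name has several probes. Probe sequences were not at hand, so where the probes of a name lie on its transcript was not checked.

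Juvenile sea bream of 10.6 ± 0.1 g (400 fish, 50 per tank, 4 tanks per diet) were fed for 95 days on the control diet or on the SDPP diet, in which 3% SDPP took the place of part of the fishmeal LT70. The labels give the fish at sampling as 82.7 ± 3.2 g on the control diet and 88.2 ± 1.6 g on the SDPP diet. Skin RNA of 4 fish, 1 from each tank of a diet, was mixed at 133 ng/µl into each of 3 pools per diet, and 200 ng of each pool was labelled with Cy3 and hybridised to 1 single-colour array. The spread between replicates is thus that between pools, not between fish. Every pool of a diet drew on all its tanks, so the spread between pools leaves out the spread between tanks. The tests below, which use the spread between pools, leave it out too, and tank and diet cannot be told apart. The control pools all lay at position 2 of their slides and the SDPP pools at position 3, so position and diet cannot be told apart either. Only control pool 1 and SDPP pool 3 shared a slide. Control pool 2 had the fewest spots well above background (28.2%, against 36.7 to 52.7% on the other arrays) and the most outlier flags (382, against 97 to 156). None of the 15156 names matched the reference gene table (32006 genes), so the members are given by name, and neither the tissue nor gene groups were checked against markers here.

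Values below are log2 of the processed spot intensity minus the 75th percentile of the array, averaged over the spots of a probe and then over the probes of a name, so that a value of 0 is the 75th percentile of that array. Names of the Seabream series are written by their last part (CL2841Contig1). Members are set against their own values on the other diet and never against the level of another member, since brightness also depends on the probe.

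The differences of the members were small. They ran from 0.40 to 1.38, with a median of 0.49, which is 1.32 to 2.60-fold with a median of 1.41-fold. The 1961 names that could qualify ran from -1.73 to 1.38 with a median of -0.004 on the same scale. Only cDN10P0004P01.F.ab1 exceeded a difference of 1, 25 members reached 0.6, 21 lay from 0.5 to below 0.6, and 52 lay below 0.5. A change of at least 1.5-fold was read in 27 of the 98. Within a diet the pools varied with a median SD, pooled over the diets, of 0.14 in the members and 0.17 in the qualifying names. The selection kept the diets apart in each probe, which favours even pools, so these medians are a description only. On the mean over probes, the clear space between the lowest SDPP pool and the highest control pool was 0.052 to 0.57. Its median was 0.25. It was 0.4 or more in 14 members and under 0.2 in 29. The selection was made probe by probe, and single probes had narrower gaps, down to 0.001. Gaps given below are those of the mean over probes unless a probe is named.

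**Figure D1:**
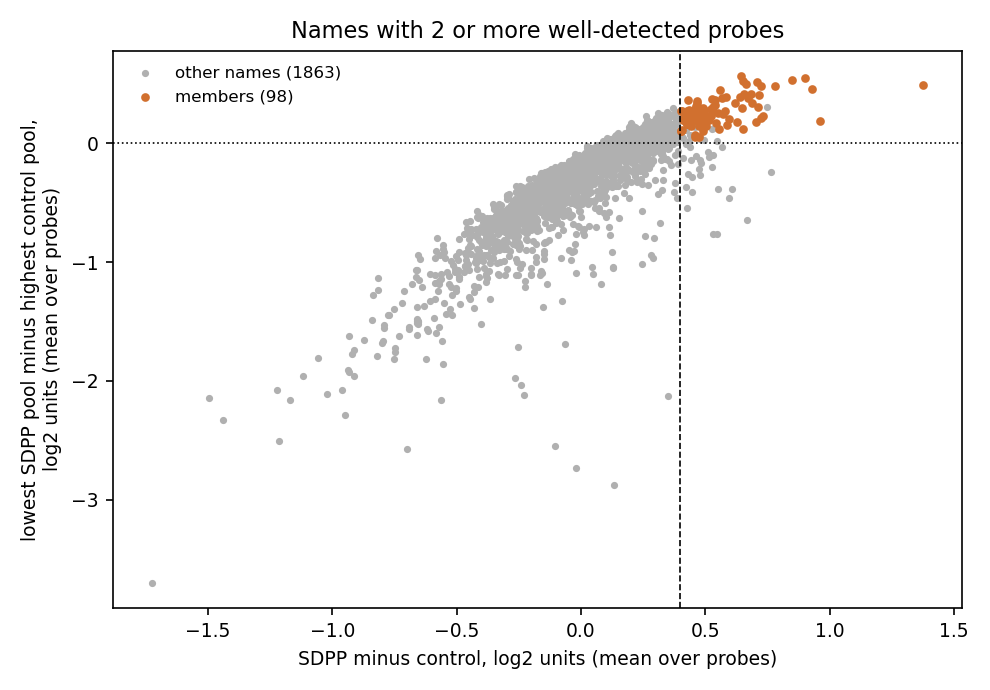
Each point is 1 of the 1961 names with 2 or more well-detected probes. The x axis gives SDPP minus control and the y axis the lowest SDPP pool minus the highest control pool, both in log2 units of the mean over probes, with the 98 members in orange, and the dashed line marks the difference of 0.4 that the selection used. The members lie in the corner beyond it, with differences up to 1.38 and gaps up to 0.57. Another 17 names lie there too. The mean over their probes had the diets apart, but a single probe did not.

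Among the 1961 names, all probes had the diets apart in this direction in 194 (9.89%), and the 98 members are those of the 194 whose difference reached 0.4. Another 43 names reached 0.4 but had a probe in which the pools of the diets overlapped. Over the 4434 names with a well-detected probe, limma gave 367 (8.28%) higher on SDPP at an unadjusted p under 0.05, among them 96 members. The exceptions were Contig2015 and cDN10P0005I23.F.ab1. The methods' t-test gave 396 (8.93%), among them 85 members. After Benjamini-Hochberg adjustment over the 4434 names, no name and none of the 98 members passed with either test (0% called), and the adjusted p of the members by limma ran from 0.152 to 0.288. Because the members were selected on this contrast, nothing was read from these counts.

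The member with the largest difference was the clone cDN10P0004P01.F.ab1. It read 3.45, 3.43 and 3.31 in control pools 1 to 3, and 4.58, 5.80 and 3.95 in SDPP pools 1 to 3. The control pools lay close together (3.40 ± 0.078, SD, n = 3) and the SDPP pools far apart (4.77 ± 0.94, SD, n = 3), with SDPP pool 2 the highest and pool 3 the nearest to the controls. On the linear scale, its signal was 15310 to 24540 on the control arrays and 36210, 101700 and 52640 in SDPP pools 3, 2 and 1. The difference of 1.38 was the same in its 3 probes to within 0.011. Without SDPP pool 2 it was 0.86, so its size rested in part on that pool.

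The next members in order of size were CL2841Contig1 and Contig2675. CL2841Contig1 read 3.75, 3.29 and 2.81 in the control pools and 4.69, 3.94 and 4.10 in the SDPP pools. Here both diets were spread out and the gap was only 0.19, between control pool 1 and SDPP pool 2, although the difference was 0.96. Contig2675 read -0.36, 0.02 and 0.26 against 0.72, 0.84 and 1.14, a difference of 0.93. All its SDPP pools lay above the 75th percentile of their arrays, and control pool 1 lay below it.

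Contig1011 and cDN11P0001P06.F.ab1 combined a large difference with a wide gap. Contig1011 read 0.17, 0.24 and 0.43 in the control pools and 1.24, 0.98 and 1.33 in the SDPP pools, a difference of 0.90 with a gap of 0.55. Its values stayed within 0.4 units inside each diet. The clone cDN11P0001P06.F.ab1 read 2.37, 2.01 and 2.53 against 3.06, 3.20 and 3.18, a difference of 0.85 with a gap of 0.54. Its SDPP pools were nearly level, and control pool 2 was the low pool. CL5259Contig1, with 0.87, 0.52 and 0.72 against 1.61, 1.495 and 1.35, differed by 0.78, and its lowest value was again control pool 2.

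A pair of Seabream contigs with a smaller difference had even pools within each diet. CL3603Contig1 read 1.47, 1.33 and 1.43 in the control pools and 2.06, 2.04 and 2.06 in the SDPP pools, and its gap of 0.57 was the widest of the set at a difference of 0.65. CL1937Contig1 read 1.37, 1.42 and 1.35 against 2.08, 2.07 and 1.94, also a difference of 0.65, with a gap of 0.52. In both, the pools of a diet differed by less than 0.2, so no pool stood out. Contig2166, with 0.22, -0.11 and 0.21 against 0.94, 0.74 and 0.76, had a gap of 0.52 at a difference of 0.71.

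Several members of the clone series cDN07 were among the 12 largest. The clone cDN07P0002E06.F.ab1 read 2.17, 2.25 and 2.27 in the control pools and 3.04, 2.75 and 3.06 in the SDPP pools, a difference of 0.72. The clone cDN07P0002E24.F.ab1 read 0.19, 0.02 and 0.37 against 0.94, 0.99 and 0.78, a difference of 0.71. In cDN07P0003H12.F.ab1 the values were 0.63, 0.40 and 0.65 against 0.88, 1.45 and 1.55, a difference of 0.73 in which SDPP pool 1 lay near the controls. In CL4423Contig1, SDPP pool 1 was instead the farthest from the controls. It read 1.51, 1.43 and 1.45 in the control pools and 2.57, 1.81 and 2.14 in the SDPP pools, a difference of 0.71.

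**Figure D2:**
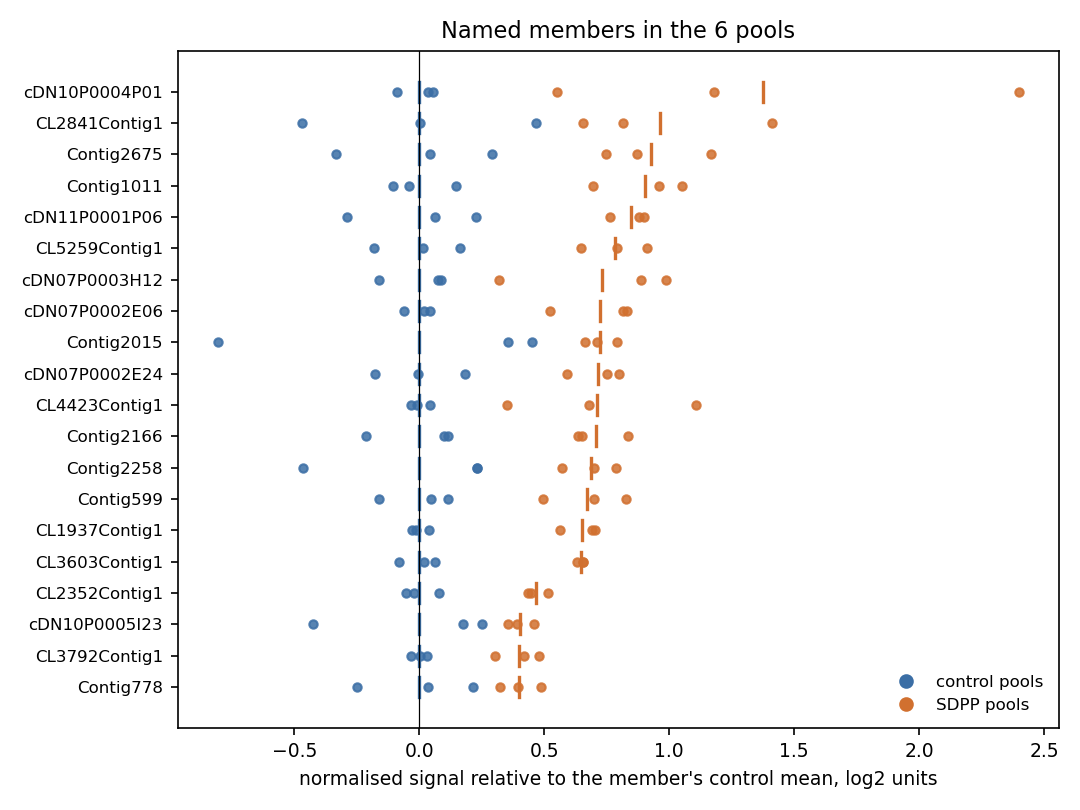
Each row is 1 of 20 members described in the text, written without the Seabream prefix and the clone suffix. The x axis gives the value of each pool relative to the control mean of that member in log2 units, with points for the 3 control pools (blue) and the 3 SDPP pools (orange) and vertical bars for the means. SDPP pool 2 of cDN10P0004P01 and control pool 1 of Contig2015 lie far from the other pools of their diet.

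The selection required every counted probe of a member to hold the diets apart in the same direction, so agreement in direction between probes is no finding, and the sizes are given as a description. The 98 members had 273 well-detected probes, with 2 probes in 22 members, 3 in 75 and 4 in 1. The range of the difference over the probes of a member had a median of 0.090, against 0.11 over the qualifying names, and in 73 members each probe on its own reached 0.4. Contig599 was the only member with 4 probes. It read 1.02, 0.75 and 0.96 in the control pools and 1.40, 1.74 and 1.61 in the SDPP pools, a difference of 0.67 with 0.63 to 0.70 in its probes, one of which is printed in 15 spots. CL2352Contig1 was among the 3 members whose probes differed most. Its mean was 0.47 higher on SDPP, from 0.93, 0.80 and 0.83 to 1.28, 1.30 and 1.36, but its probes ranged from 0.25 to 0.59. Probes of a name were hybridised to the same RNA of the same pool, so they are not replicates of the diet.

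Contig2015 and Contig2258, whose probes differed most of all, each owed part of their difference to 1 spot on the array of control pool 1. Contig2015 read 3.22, 4.38 and 4.47 in the control pools and 4.69, 4.81 and 4.74 in the SDPP pools. Its probes differed by 0.22, 0.30 and 1.65. The probe with 1.65 (CUST_1846_PI419285025) is printed in 2 spots, and on the array of control pool 1 these gave signals of 34040 and 139.2. On the other 5 arrays the same 2 spots gave 22290 to 53410. The low spot was not well above background and carried no outlier flag, and the probe counted as detected because 50% of its spots sufficed. With only spots well above background averaged, a calculation added after the data were seen, control pool 1 read 4.54 and the difference of Contig2015 was 0.28, below the limit of 0.4.

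Contig2258 showed the same pattern at a lower signal. It read -0.77, -0.08 and -0.08 in the control pools and 0.39, 0.48 and 0.26 in the SDPP pools, a difference of 0.69. One of its 3 probes (CUST_2205_PI419285025) gave 2430 and 142.8 in its 2 spots on the array of control pool 1. With only spots well above background averaged its difference was 0.43, so it remained a member. Both low spots lie in column 78 of the array, in rows 500 and 512. On this array 30 spots lay more than 3 log2 units below the median of the other 5 arrays while those all read above -1. Of the 30, 12 lay in a stretch of 4 columns and 40 rows either side of both low spots, which held 521 non-control spots. These 12 were in columns 78 to 82 and rows 469 to 524. The 12 belong to 12 names, and of these only Contig2015 and Contig2258 were members. Over all 98, 7 members had a spot not well above background in a counted probe, and Contig2015 alone dropped out without those spots.

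**Figure D3:**
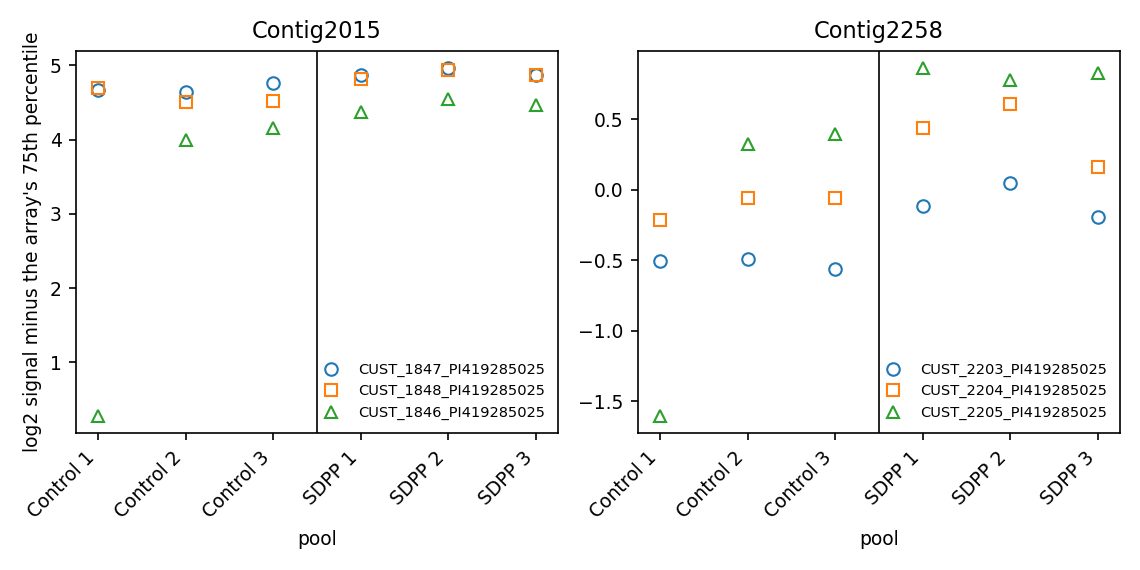
The 3 well-detected probes of Contig2015 (left) and of Contig2258 (right), with the pool on the x axis and log2 signal minus the 75th percentile of the array on the y axis. In control pool 1 the probe drawn as a triangle lies far below its values on the other 5 arrays, while the other two probes do not.

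Some of the other differences also rested on 1 pool. With the same probes kept, the members still at or above 0.4 were 93 without control pool 1, 79 without control pool 2, 87 without control pool 3, 92 without SDPP pool 1, 80 without SDPP pool 2 and 80 without SDPP pool 3. Of the members, 49 stayed there whichever pool was left out, and the other 49 fell below 0.4 in at least 1 case. This count also reflects closeness to the limit. CL3792Contig1, with a difference of 0.40 and a pooled SD of only 0.066, fell to 0.36 without SDPP pool 1. In 9 members the difference moved by more than 1.5 times. Besides cDN10P0004P01.F.ab1, Contig2015 (0.32 without control pool 1) and Contig2258 (0.45 without it), these were Contig1991, Contig689, Contig566 and Contig2594 without control pool 2, cDN10P0005I23.F.ab1 without control pool 3 and cDN11P0004A01.F.ab1 without SDPP pool 3. Contig1991 is the clearest of the 4 that depended on control pool 2. It read 3.16, 2.17 and 3.09 in the control pools and 3.34, 3.28 and 3.75 in the SDPP pools, and its difference of 0.65 was 0.33 without that pool. The differences of Contig689, Contig566 and Contig2594 went from 0.57 to 0.37, from 0.50 to 0.29 and from 0.40 to 0.23 in the same way.

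**Figure D4:**
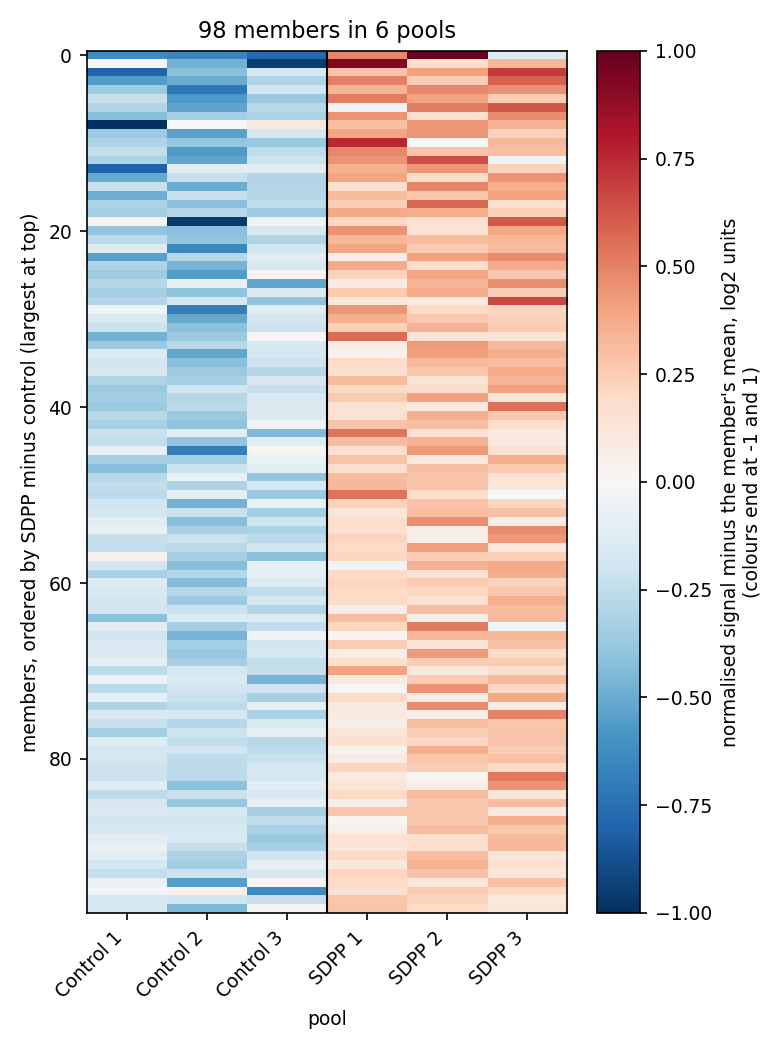
Rows are the 98 members, ordered by their difference with the largest at the top, and columns are the 6 pools. Colour gives the value of the pool minus the mean of that member over the 6 pools in log2 units, ending at -1 and 1. The change of colour between the control and the SDPP columns follows from the selection. Dark cells mark pools far from the mean of the member, such as Contig2015 in control pool 1. They also occur in members with a large difference, so a dark cell alone does not show that a member rested on 1 pool.

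The order of the pools inside a diet was not fixed by the selection, although a low control pool or a high SDPP pool enlarges a difference. Control pool 2 was the lowest control pool in 51 of the 98 members (52.0%) and in 646 of the 1961 qualifying names (32.9%). It was the highest control pool in 17 members (17.3%) and in 47.4% of the qualifying names. Control pool 3 was the highest in 45 members (45.9%, against 24.4%). Among the SDPP pools, pool 1 was the lowest in 38 members (38.8%, against 25.3%). Pool 2 was the highest in 41 (41.8%, against 39.8%) and pool 3 in 38 (38.8%, against 26.9%). Members on 1 array share its labelling and scan, so these shares carry no p-value. Control pool 2 is also the array with the fewest spots well above background, and the part of this in the members' differences was not tested. The median difference of the members without control pool 2, recomputed with the filter on the other 5 arrays, was 0.46.

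**Figure D5:**
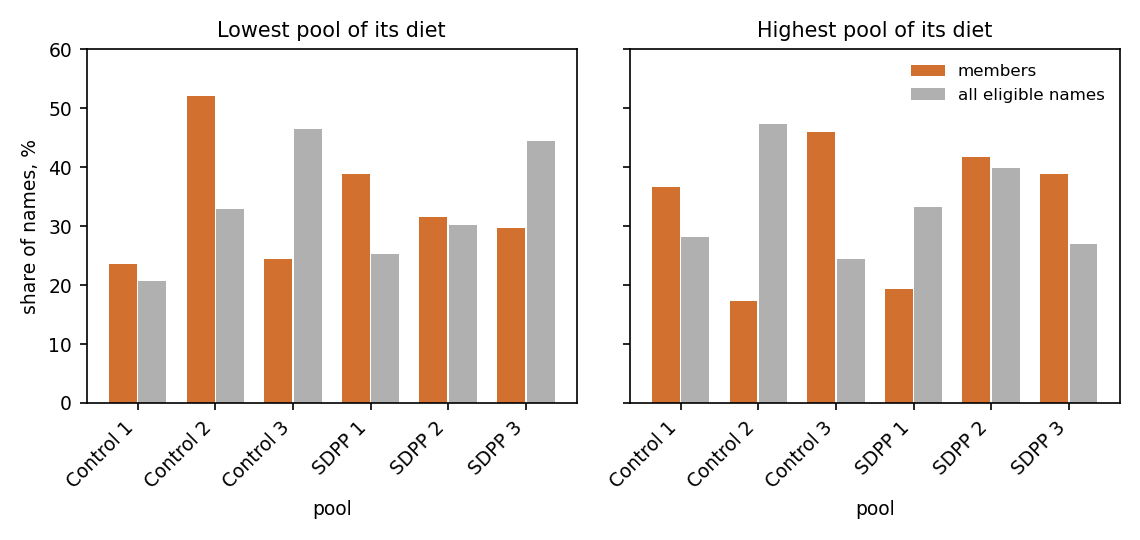
Bars give the share of names, in percent, for which a pool was the lowest (left) or the highest (right) of the 3 pools of its diet, for the 98 members (orange) and all 1961 qualifying names (grey). Control pool 2 was the lowest control pool for 52.0% of the members and 32.9% of the qualifying names.

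On the slide that held both diets, SDPP pool 3 exceeded control pool 1 in all 98 members, as the selection required. The median of this difference was 0.49 (0.068 to 1.52), against -0.030 over the qualifying names. Both pools were among those the selection used, so this slide gives no separate support. Replicate spots of a probe varied less than pools. In the 99 member probes printed in several spots, the SD between spots on an array had a median of 0.066. The SD between pools had a median of 0.16 and the difference between the diets of 0.50. The selection required a difference of 0.4 and no overlap of the diets, so the pool SD and the difference follow partly from it.

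The members had 22 further probes, in 22 members, that the selection had left out because they were not well above background on all arrays. Of these, 18 were well above background on 5 arrays and 2 on none. On SDPP 19 of the 22 read higher, 15 by 0.4 or more, and in 12 the lowest SDPP pool lay above the highest control pool. Over all qualifying names there were 411 such probes with a value on all 6 arrays, these 22 included. Of the 411, 59.4% read higher, 19.0% by 0.4 or more, and 12.4% had the diets apart in this direction. The median difference was 0.50 over the 22, with a range of -0.39 to 1.18, and 0.085 over the 411. The 22 read the same transcripts in the same pools as the probes the selection used, so they are no independent support for a difference between the diets.

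The members just inside the limit of 0.4 were Contig778, CL3792Contig1 and cDN10P0005I23.F.ab1, each with a difference of 0.40. Contig778 read 1.70, 1.41 and 1.88 against 2.15, 2.06 and 1.98, CL3792Contig1 read 0.87, 0.84 and 0.81 against 1.32, 1.26 and 1.14, and cDN10P0005I23.F.ab1 read 4.58, 4.66 and 3.98 against 4.76, 4.87 and 4.80. The first and the last had gaps near 0.1 on the mean over probes. In the narrowest probe of each, the gap was 0.0295 and 0.0597. In the last, control pool 3 alone was low, with a difference of 0.19 without it. The names that met every other condition and fell just short were CL2110Contig1 with 0.399, Contig3123 with 0.392 and Contig1576 with 0.389. CL2110Contig1 read 0.79, 0.64 and 0.88 against 1.15, 1.18 and 1.18, a gap of 0.27, wider than that of Contig778.

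Of the members, 42 belonged to the Contig series (4.99% of the 842 names of that series that could qualify), 34 to the Seabream contigs (5.75% of 591) and 22 to the cDN clones (4.63% of 475). The SCT clones, with 34 qualifying names, and the other series, with 19, held none. In 93 members (94.9%) all control pools already lay above the 75th percentile of their arrays, against 88.4% of the qualifying names. The spots of the members lay across the array, with a median row of 258 and column of 42, against 271 and 43 for the qualifying names.

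The size of the differences depends on how the arrays are set to a common level. The 6 well-detected E1A spike-in probes read RNA of a spike-in kit that was added to each labelling. On average they lay 0.15 to 0.22 lower on the SDPP arrays, but the pools of the diets overlapped. Their median was 4.75, 4.95 and 4.49 in control pools 1 to 3. In SDPP pools 1 to 3 it was 4.56, 4.77 and 4.29. Scaling on these probes, a choice made after the data were seen, moves the difference of all names up. The median of all names then went from -0.032 to 0.16 and that of the members from 0.49 to 0.68, and 70 of the 98 members met the conditions among 145 names. With the median of each array subtracted, all 98 met them among 177 names.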

How the data were processed

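Skin RNA was read on 6 single-colour arrays, 3 pools per diet, grouped by the diet named in the labels. The authors scanned the slides and deposited, per array, spot intensity values that Feature Extraction (version 10.7.3.1 per the file headers) had corrected for background and spatial trend, with no normalization between arrays. The software raises signals near background to a positive surrogate, which limits low values. The authors also deposited a log2 value table of the series. It equals log2 of the background-subtracted intensity within 5e-09, is not normalized, and is empty for 8663 to 14733 spots per array. It was used as an alternative. No column was left without a sample.

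Of 43803 non-control spots, any that carried an outlier flag on an array was dropped there. The 75th percentile of each array was subtracted from log2 intensity, and spots were averaged per probe (28793 probes). A probe passed when at least 50% of its spots were well above background on each array (7893 probes). No spot was saturated. The number of arrays limits the precision. Names with a probe that passed (4434) were compared by lmFit and eBayes in limma 3.58.1 under R 4.3.3, and with the methods' unpaired t-test. The limma fit was also run on data simulated from the means and SDs of these names. Benjamini-Hochberg adjustment ran over all names tested. Python 3.11.15, numpy 2.4.6, pandas 2.3.3 and matplotlib 3.10.9 were used for the rest.

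The members, lists and tests were chosen with earlier results of these data known. Named were the 12 members with the largest difference, the 5 with the widest gap, the 3 with the most probes, the 3 whose probes differed most, and the 3 on either side of the limit of 0.4. Contig1991, Contig689, Contig566, Contig2594 and cDN11P0004A01.F.ab1 were named after their values were seen, as those that 1 pool moved by over 1.5 times. Planned gene lists and marker checks were not run, since the files do not pair names with genes. Replicate numbers 1 to 3 are shared by the diets. Correlations of the deviations of same-numbered pools were -0.051, 0.26 and 0.21 over 4434 names. Control pools 2 and 3 correlated most with the SDPP pool of the same number, and control pool 1 with SDPP pool 3. These values do not settle whether the pools were paired, so the pool number was a block only as an alternative. Alternatives covered background correction, scaling, flags, filters, limits, probe agreement, a replicate block and leaving out each pool.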

Additional observations from a re-analysis of the deposited data

How the results depend on the processing

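The set held 98 names. It held 177 with median scaling, 49 with normexp background correction, 149 with a limit of 0.3 and 46 with a limit of 0.5. When a pool was left out it held 100 to 133, where fewer pools and arrays make the conditions easier to meet. Of the 98 members, 48 met the conditions with normexp, 59 with the deposited log2 table and 75 to 93 when a pool was left out. The median difference of the members was 0.49, and 0.68 with spike-in scaling. Leaving out a pool gave 0.46 to 0.53. For all names, limma gave 367 higher and 488 lower at an unadjusted p under 0.05 (42.9% higher). With median scaling these were 615 and 233 (72.5%). The count of higher names was 239 with normexp and 237 with the log2 table, each of 4434 names tested as in the main setting. With no filter on dim probes it was 223 of 15155 names. It was 255 to 375 when a pool was left out, of the 4434 to 5677 names then tested. Without control pool 2 it was 375 of 5677, against 319 lower. The methods' t-test gave 396 against 291. After adjustment limma passed 0 names, 6 with the log2 table and 0 to 1 when a pool was left out. The cause was not tested. With the pool number as a replicate block, 383 names were higher and 649 lower before adjustment, among the higher 96 members, and 0 passed after it. For 20 members named by the rule, 160 values were compared under other scaling, background, flag, filter or spot settings. Of these, 153 moved by less than 1 SD between pools, 7 moved further and none reversed. Some of the 153 could not move, since a filter setting changes nothing where all probes of a name were already counted. Likewise, averaging only spots well above background changes nothing where no spot of the name was dim. The 153 are therefore not read as a measure of stability. The members were selected for diets held apart on the same arrays, so a reversal was hardly possible. A wide SD also hides shifts, as Contig2015 went from 0.72 to 0.30 with the log2 table against an SD of 0.50. Leaving out a pool or blocking by number could hardly reverse a member by construction and is not counted among the 160. The slide as a random block could not be fitted, since only 1 slide held 2 arrays. Arrays with few spots well above background, as control pool 2, limit which names could qualify, since 2520 names could do so without it.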

Other observations

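A few features of the members were looked at after their values were seen and are given as values only. Among the cDN clones, the series with the highest shares were cDN07, with 7 members of its 38 qualifying names (18.4%), and cDN10, with 4 of 37. Over all cDN clones 22 of 475 (4.63%) were members, and the series cDN03, cDN05, cDN06, cDN12 and cDN13 held none. The set held 3 pairs of members that carried successive contig numbers, among 253 such pairs over all qualifying names. They were Contig2042 and Contig2043 with differences of 0.44 and 0.46, Contig2097 and Contig2098 with 0.47 and 0.48, and Contig2674 and Contig2675 with 0.43 and 0.93. Contig2097 and Contig2043 had the narrowest gaps of the set on the mean over probes, with 0.052 and 0.056. Single probes of other members had narrower ones.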
